A study of Mus musculus with 22 samples.

Results

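The regions described here were 1 kb tiles of the mouse genome (mm9) whose CpG methylation was low in wild-type liver at E14.5 (E, embryonic day) and higher at E18.5. A tile entered if it lay on an autosome and held at least 8 CpGs that were each covered by at least 6 reads in all 12 bisulphite libraries. Its methylation was the share of unconverted cytosines among all reads at those CpGs. Tiles were chosen if the mean of the wild-type E14.5 livers was under 30% and the lower wild-type E18.5 liver exceeded the higher wild-type E14.5 liver by at least 20 percentage points. This gave 135 of 574594 tiles, or 135 of the 46798 tiles that were under 30% in wild-type E14.5 liver. They lay on 18 of the 19 autosomes and held 8 to 88 CpGs each, with a median of 11.

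Whole-genome bisulphite sequencing was available for 2 wild-type and 2 mutant animals at each of 3 points, the E10.5 embryo, the E14.5 liver and the E18.5 liver, and RNA sequencing for 3 wild-type and 3 mutant E14.5 livers. All animals were of the inbred FVB/NJ Line3 strain, which is homozygous for a multicopy GFP transgene driven by a human alpha-globin promoter with the HS-40 enhancer. The mutants were homozygous for MommeD28, a null allele of the zinc finger gene Rlf that arose from a chemical (ENU) mutagenesis screen. The E10.5 animals were all male, the E18.5 animals all female, and each E14.5 bisulphite group held 1 male (replicate 1) and 1 female (replicate 2), so that stage and sex were partly confounded. Mean depth was 17.2 to 19.4 reads per covered CpG in the E10.5 and E18.5 libraries and 32.2 to 36.1 in the E14.5 livers, and unconverted lambda phage cytosines amounted to 0.0412% to 0.0775%. Behind each chosen tile stood a median of 218 to 480 reads per library. Levels also differed between libraries of the same stage. E18.5 mutant replicate 1 had 65.5% methylation over all autosomal CpG reads, against 61.4% to 61.7% in the other E18.5 livers. E14.5 wild-type replicate 1, which helped to choose the tiles, had 56.4%, against 58.5% to 60.3% in the other E14.5 livers. Rlf RNA did not separate the genotypes, with 918, 1094 and 982 reads for the wild type and 983, 1106 and 963 for the mutants, so the counts do not check the labels.

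Methylation of cytosine in CpG pairs covers most of the mammalian genome and is sparse at active promoters and enhancers, where bound transcription factors and demethylating enzymes keep it low. The fetal liver is the main site of blood formation in mid-gestation and is then filled with maturing red cells, whereas hepatocytes take up a growing share of the organ towards birth. A bulk liver value averages over these cells, and a change in cell composition cannot be told apart from a change within a cell type. GATA factors, KLF1 and TAL1 are regulators of red cell genes. Hox genes are transcription factors that pattern the body axis, and their clusters are usually free of methylation in the early embryo.

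The sequences of 5 of the tiles are shown because the comparisons below turn on them: 3 at genes of a list of erythroid genes, the Vangl1 tile as a strong gainer that was methylated in the embryo, and an Rnf220 tile that was low there. Each is the stretch of 300 bases with the most CpGs in its tile, read from the plus strand of mm9. The labels describe the whole 1 kb tile: exon means any overlap with one, and start means a centre within 2.5 kb of a start site. The printed stretch itself need not overlap the exon or hold the start site. Capitals mark CG pairs and the GATA-type motif AGATAA or its reverse complement TTATCT.
Nprl3 intron, chr11:32145514-32145813: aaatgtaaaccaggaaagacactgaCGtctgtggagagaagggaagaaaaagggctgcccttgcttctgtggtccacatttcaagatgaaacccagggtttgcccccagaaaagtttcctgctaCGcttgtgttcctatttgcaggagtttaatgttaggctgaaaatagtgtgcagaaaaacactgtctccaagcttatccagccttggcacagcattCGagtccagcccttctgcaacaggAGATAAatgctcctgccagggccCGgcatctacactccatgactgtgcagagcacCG
Uros exon, chr7:140890001-140890300: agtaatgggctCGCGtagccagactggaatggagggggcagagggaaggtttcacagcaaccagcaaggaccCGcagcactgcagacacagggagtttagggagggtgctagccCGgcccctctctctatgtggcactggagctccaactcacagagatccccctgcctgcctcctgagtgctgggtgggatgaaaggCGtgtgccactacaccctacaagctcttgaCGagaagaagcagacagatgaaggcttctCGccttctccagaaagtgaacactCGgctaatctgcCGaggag
Spnb1 intron, chr12:77771511-77771810: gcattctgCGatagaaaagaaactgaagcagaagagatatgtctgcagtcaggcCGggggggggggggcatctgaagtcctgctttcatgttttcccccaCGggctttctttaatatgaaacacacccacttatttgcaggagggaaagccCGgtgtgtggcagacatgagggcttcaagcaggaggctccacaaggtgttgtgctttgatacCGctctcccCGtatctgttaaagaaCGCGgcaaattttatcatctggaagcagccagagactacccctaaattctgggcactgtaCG
Vangl1 start, chr3:101969259-101969558: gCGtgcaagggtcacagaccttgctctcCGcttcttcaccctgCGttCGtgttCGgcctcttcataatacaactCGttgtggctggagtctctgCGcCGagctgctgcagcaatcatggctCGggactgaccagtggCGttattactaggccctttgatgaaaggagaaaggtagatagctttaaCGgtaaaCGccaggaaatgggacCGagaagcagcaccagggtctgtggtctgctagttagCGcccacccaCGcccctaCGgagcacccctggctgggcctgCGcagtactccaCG
Rnf220 intron, chr4:116976700-116976999: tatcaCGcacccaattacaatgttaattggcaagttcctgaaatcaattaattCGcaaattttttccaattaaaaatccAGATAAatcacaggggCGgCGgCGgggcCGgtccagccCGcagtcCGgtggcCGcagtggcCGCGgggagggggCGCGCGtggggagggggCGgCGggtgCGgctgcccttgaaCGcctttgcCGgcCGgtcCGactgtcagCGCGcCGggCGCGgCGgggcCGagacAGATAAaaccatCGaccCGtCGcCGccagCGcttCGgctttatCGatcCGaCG

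In the wild-type livers, which chose the tiles, mean methylation over the 135 tiles was 19.1% and 20.1% at E14.5 and 46.4% and 46.8% at E18.5. In the mutant livers, which the choice did not use, it was 24.5% and 23.8% at E14.5 and 48.0% and 43.6% at E18.5. In the embryos, also not used, it was 63.0% and 63.4% in the wild type and 65.8% and 64.9% in the mutants. Most of the tiles were methylated in the E10.5 embryo, low in the E14.5 liver and intermediate in the E18.5 liver. The embryo libraries were made from whole embryos, so stage and tissue cannot be told apart in any comparison of embryo with liver. Over all 574594 tiles the group means were 77.0% and 78.6% in wild-type and mutant embryos, 62.1% and 64.1% in E14.5 livers and 66.7% and 69.0% in E18.5 livers.

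The tiles fell on both sides of 50% in the wild-type embryo, a boundary set after the values were seen, with only 4 tiles within 5 points of it. In 100 tiles the wild-type embryo mean was at least 50%, and in 80 of them at least 75%. In the other 35 it was lower, and in 25 of them under 20%. The mutant embryos, which did not set the boundary, averaged 82.6% ± 0.49 (SD, n = 2) over the first set and 16.1% ± 0.92 (SD, n = 2) over the second. At E14.5 the mutant livers were at 26.2% ± 0.22 (SD, n = 2) and 18.3% ± 1.25 (SD, n = 2), and at E18.5 at 46.8% ± 4.15 (SD, n = 2) and 42.8% ± 0.04 (SD, n = 2). The rule held the wild-type liver levels within limits in both sets, and the embryo level divided them.

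**Figure D1:**
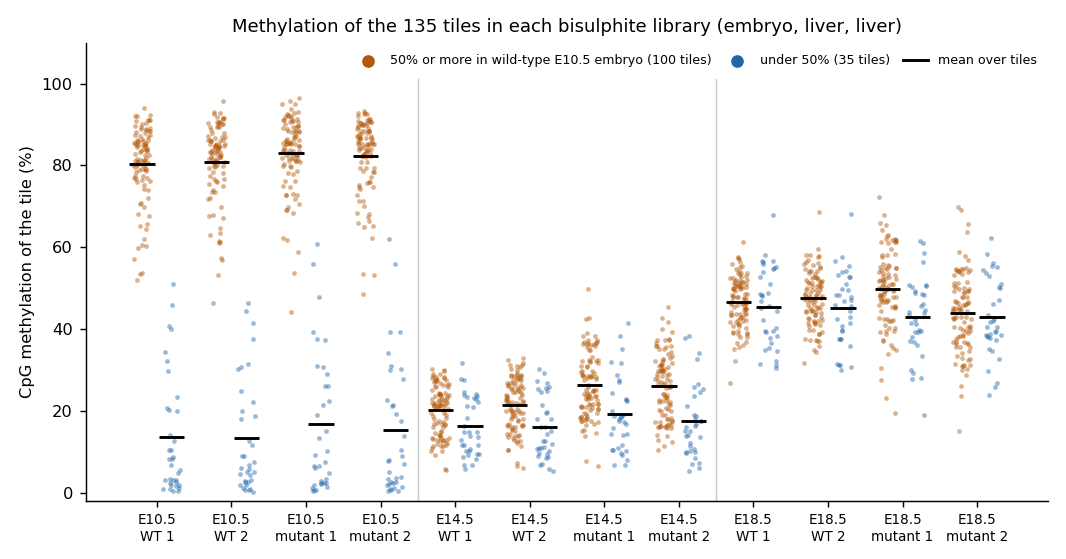
Methylation of each of the 135 tiles (points, in percent) in each of the 12 bisulphite libraries, with tiles at 50% or more in the wild-type E10.5 embryo in orange, the others in blue, and black bars for the mean over tiles. In the mutants the orange tiles average 82.6% in the embryo, 26.2% in the E14.5 liver and 46.8% in the E18.5 liver, and the blue tiles 16.1% in the embryo and 42.8% in the E18.5 liver.

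The gain between the liver stages was tested in the mutant livers alone. All 135 tiles had a higher mean at E18.5 than at E14.5, as did 500136 of all 574594 tiles. The gain of the 135 was 21.7 points on average and 4.71 to 36.5 points over the tiles. At 133 of them both E18.5 mutants were above both E14.5 mutants, which was true of 59% of all tiles. With edgeR's quasi-likelihood test on methylated and unmethylated reads, adjusted over all tiles, 114 of the 135 were called higher (adjusted p below 0.05 with a mean difference of more than 15 points) and none was called lower, whereas 1.41% of all tiles were called higher and 0.0419% lower. An unadjusted p under 0.05 was reached by 130 of the 135, against 30.7% of all tiles in either direction. As 1 value per library the gain was 21.7 points (exact two-sided permutation test, p = 0.33, the smallest p that 2 against 2 can give). The mean change over all tiles was 4.94 points, and over the other tiles that were low in wild-type E14.5 liver it was 1.43 points. The number of calls was 40 without the male E14.5 mutant replicate 1 and 22 without the female replicate 2, while calls of higher methylation over all tiles went from 8108 to 150 and 96. With limma on log ratios it was 8 of 12 such calls over all tiles. The mean gain stayed between 19.5 and 23.8 points when any 1 mutant liver was left out.

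**Figure D2:**
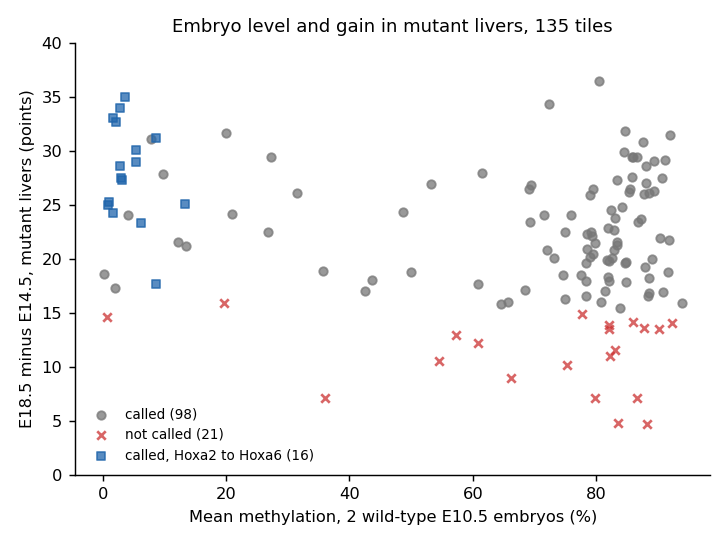
Mean methylation in the wild-type E10.5 embryos (horizontal axis, percent) against the gain from E14.5 to E18.5 in mutant livers (vertical axis, percentage points) for the 135 tiles. All 16 tiles of the Hoxa2 to Hoxa6 interval (blue squares) were called higher at E18.5, and the 21 tiles that were not called (red crosses) lie at 15.9 points or below.

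Among the 100 tiles methylated in the embryo, 82 were called higher at E18.5 in the mutant livers. The lower level in E14.5 liver than in the embryo was called at all 100, with differences of mutant E14.5 livers from mutant E10.5 embryos between -73.8 and -27.4 points, where 50.9% of all tiles were called lower. Tiles high in the wild-type embryo and low in wild-type E14.5 liver had to differ in this direction in the wild type: of the 5108 other tiles that met both limits, 5107 (99.98%) had both mutant livers below both mutant embryos, so this difference is a description. At E18.5 the mutant livers were still below the mutant embryos at 98 of the 100 by the same test, where 22.7% of all tiles were called lower. This too is a description, since 5083 of the 5108 other tiles had both E18.5 mutants below both mutant embryos. The gain made up a median of 36.3% of the distance between the mutant E14.5 liver and the mutant embryo, and it was under 50% of that distance at 88 tiles and over 90% at none.

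The erythroid list held 3 genes with a chosen tile in the gene body or 5 kb either side, out of 60 list genes with any tile (5.0%), where 93 of 19544 protein-coding genes (0.48%) did. This share was not tested, and the list was chosen with earlier results of these data known. In an intron of Nprl3 (chr11:32145001-32146000), whose introns carry distant enhancers of the alpha-globin genes, methylation was 83.2% and 86.3% in wild-type and 90.9% and 90.8% in mutant embryos. It was 22.5% and 25.7% in wild-type and 28.5% and 30.2% in mutant E14.5 livers, and 52.7% and 48.5% in wild-type and 52.8% and 45.1% in mutant E18.5 livers. The mutant livers did not overlap between the stages and differed by 19.6 points (edgeR, adjusted p = 0.0101), and all 11 of the tile's CpGs were higher at E18.5.

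The Spnb1 tile (chr12:77771001-77772000) lies in an intron of the gene for erythroid beta-spectrin, a protein of the red cell membrane skeleton. It was at 73.0% and 65.1% in the mutant embryos, 25.8% and 17.2% in the mutant E14.5 livers and 38.8% and 38.5% in the mutant E18.5 livers. The stages did not overlap, with a difference of 17.1 points (edgeR, adjusted p = 0.0191). The Uros tile (chr7:140890001-140891000) overlaps an exon of the gene for uroporphyrinogen III synthase, an enzyme of heme synthesis. It was at 92.3% and 85.2% in the mutant embryos, 37.3% and 35.8% in the mutant E14.5 livers and 52.2% and 42.9% in the mutant E18.5 livers. Its gain of 10.99 points in the mutants was not called (edgeR, adjusted p = 0.0998), and in the wild type, where it was chosen, the levels were 27.0% and 28.7% at E14.5 and 51.8% and 51.4% at E18.5.

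Of the other cell type lists, the stem and progenitor list held 1 gene of 11 with a chosen tile, Runx1, a transcription factor of blood stem cell formation, and the hepatocyte (39 genes), neutrophil (14), macrophage (12), megakaryocyte (13), lymphoid (10), endothelial (10) and mesenchymal (12) lists and the list of DNA methylation enzymes (9) held none. At the 0.48% of all protein-coding genes, lists of this size would mostly hold none. Nothing is therefore read from these counts. The Runx1 tile (chr16:92712001-92713000), named here after its values were seen, is intronic and was at 87.2% and 85.2% in the mutant embryos, 21.6% and 29.8% in the mutant E14.5 livers and 42.3% and 43.0% in the mutant E18.5 livers. Its gain of 16.97 points was called (edgeR, adjusted p = 0.0193).

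The Vangl1 tile (chr3:101969001-101970000) was the embryo-methylated tile among the 10 with the largest wild-type gain. Its centre lies 1352 bases downstream of a start site of Vangl1, which encodes a membrane protein of planar cell polarity. It was at 83.1% and 85.3% in the mutant embryos, 28.4% and 27.8% in the mutant E14.5 livers and 66.02% and 58.7% in the mutant E18.5 livers, a gain of 34.3 points with no overlap (edgeR, adjusted p = 5.83e-08). All 33 of its CpGs were higher at E18.5 in the mutants.

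Of the 35 tiles that were under 50% in the wild-type embryo, 32 were called higher at E18.5 than at E14.5 in the mutant livers. At E14.5 the mutant livers had a higher mean than the mutant embryos at 26 of the 35, with a median difference of 5.49 points. These 26 included all 16 chosen tiles of the Hoxa interval described below. As neighbours at 1 locus they are not independent regions, so nothing is read from this share. A higher mean was found at 46183 of all 574594 tiles, and at 20933 of the 41555 other low tiles under 50% in the wild-type embryo. Differences past 15 points were called at 5 tiles above and 5 below the embryos, where 1.14% of all tiles were called above and 50.9% below. At E18.5 the mutant livers were called above the mutant embryos at 28 of the 35 and below at 2, where 1.54% of all tiles were called above and 22.7% below. The choice of tiles high in wild-type E18.5 liver and low in the wild-type embryo favoured this direction, so nothing is read from that share. The means were 42.8% at E18.5 and 16.1% in the embryo. The 5 tiles called above the embryo already at E14.5 were 3 of the Hoxa interval, an exonic Runx3 tile and an exonic Rps6ka4 tile, all named after their values were seen. Runx3 is a transcription factor of the same family as Runx1, and at its tile (chr4:134711001-134712000) the mutants were at 1.74% and 3.24% in the embryo, 38.2% and 37.7% in the E14.5 liver and 61.6% and 62.3% in the E18.5 liver. At Rps6ka4 (chr19:6905001-6906000), which encodes a ribosomal S6 kinase, they were at 1.45% and 1.92%, then 28.7% and 32.6%, then 48.8% and 47.0%. At both tiles every mutant E14.5 liver lay above the mutant embryos and below the E18.5 mutants.

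The Hoxa cluster held 16 of these 35 tiles, between 52117001 and 52157000 on chromosome 6, from upstream of Hoxa2 to upstream of Hoxa5. Elsewhere the chosen tiles were scattered: with gaps of up to 10 kb joined there were 118 groups outside the cluster, 117 of them single tiles, and the longest run of adjacent tiles there was 2. Over the 16 tiles the means were 4.36% and 4.36% in the wild-type embryos and 6.90% in the mutant embryos. They were 17.3% and 14.8% in the mutant E14.5 livers and 43.3% and 44.9% in the mutant E18.5 livers. Each of the 16 gained 17.7 to 34.96 points in the mutants, and all 16 were called.

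Within the same interval 10 tiles were not chosen. They averaged 4.74% and 3.88% in the mutant E14.5 livers and 12.12% and 11.96% in the mutant E18.5 livers, and 6 of the 10 lay within 1 kb of a start site, against 3 of the 16 chosen tiles. Of these 10, 2 gained over 15 points in the mutants. In the 46 tiles from Hoxa2 to Hoxa13 that lay outside that interval, the mutant livers were at 6.27% and 5.84% at E14.5 and 7.90% and 7.48% at E18.5. Of those 46, 2 gained over 15 points in the mutants, 1 within Hoxa6 and 1 near Hoxa7. The gain was thus uneven along the cluster, and no test of this pattern was made, since the wild-type livers picked the tiles.

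**Figure D3:**
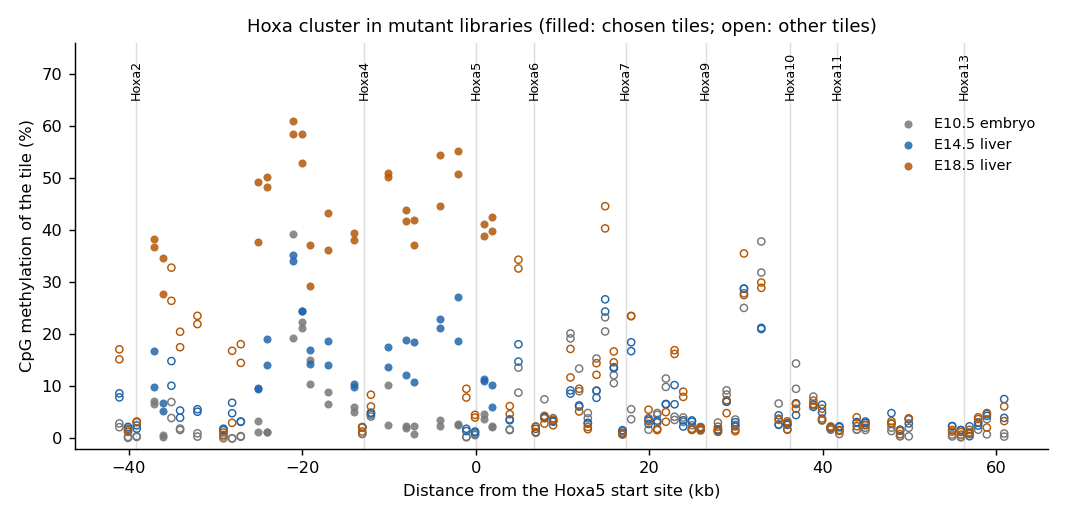
CpG methylation (percent) of 1 kb tiles from Hoxa2 to Hoxa13 in the 6 mutant bisulphite libraries, by distance from the Hoxa5 start site in kb, with the 16 chosen tiles filled and other tiles open. The filled tiles average 6.90% in embryos (grey), 17.3% and 14.8% in E14.5 livers (blue) and 43.3% and 44.9% in E18.5 livers (orange), while 2 of the 46 open tiles outside the interval gained over 15 points.

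Single tiles show the values behind these means. At chr6:52147001-52148000, between Hoxa4 and Hoxa5, methylation was 2.30% and 0.91% in the mutant embryos, 18.4% and 10.7% in the E14.5 mutants and 37.1% and 42.0% in the E18.5 mutants, and all 12 of its CpGs gained over 15 points (edgeR, adjusted p = 0.000122). At chr6:52156001-52157000, upstream of a Hoxa5 start site, it was 2.19% and 2.44%, then 10.3% and 5.94%, then 39.8% and 42.5%, and 40 of its 41 CpGs gained over 15 points (edgeR, adjusted p = 3.82e-11). The largest mutant gain of the interval, 34.96 points, was at chr6:52144001-52145000, where the E14.5 mutants were at 17.5% and 13.8% and the E18.5 mutants at 50.2% and 51.0%.

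The run of 3 adjacent tiles from chr6:52133001 to 52136000 spans a start site of Hoxa3. Its first tile was the least like the others in the embryo, at 14.2% and 12.6% in the wild type and 39.3% and 19.3% in the mutants. It reached 60.9% and 58.5% in the E18.5 mutants from 35.2% and 34.0% in the E14.5 mutants. The other two tiles gained 31.2 and 17.7 points in the mutants.

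Outside the Hoxa cluster 19 of the tiles were under 50% in the embryo. One of the 10 tiles with the largest wild-type gain was in an intron of Rnf220 (chr4:116976001-116977000, 58 CpGs), a gene for a ubiquitin ligase. Methylation there was 9.12% and 7.97% in the mutant embryos and 10.2% and 10.2% in the mutant E14.5 livers. It was 43.3% and 39.2% in the mutant E18.5 livers, and all 58 CpGs gained over 15 points (edgeR, adjusted p = 8.5e-11). A second Rnf220 tile, chr4:116990001-116991000, gained 24.1 points in the mutants.

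The largest wild-type gain, 42.8 points, lay upstream of Zfp184, the gene with the nearest start site (chr13:22023001-22024000, intergenic), which encodes a zinc finger protein. The wild-type livers were at 23.7% and 26.8% at E14.5 and 67.9% and 68.2% at E18.5. The mutants went from 19.8% and 17.6% to 50.7% and 50%, which was 31.6 points (edgeR, adjusted p = 4.4e-06). Since the tile was named for its wild-type gain, the genotypes are not compared there. The mutant embryos were at 21.4% and 13.8%, about as low as the E14.5 livers.

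The 5 tiles with the smallest gain in the mutants gained 4.71 to 7.15 points there, and none was called. They were an intergenic tile at chr4:13214001-13215000, intronic tiles of Hydin and Scube3, a tile near a start site of Sphk1, which encodes sphingosine kinase 1, and an exonic tile of Elf1, a transcription factor of the ETS family. In the Elf1 tile (chr14:79936001-79937000) the mutants were at 31.0% and 27.4% at E14.5 and 35.5% and 32.6% at E18.5, while the wild-type livers that chose it were at 21.5% and 25.4% and then 46.4% and 53.6%. At chr4:13214001-13215000 the mutants were at 36.1% and 35.1% and then 40.2% and 40.4%, and no CpG of the 9 gained over 15 points. These tiles were picked for a small mutant gain, so their difference from the wild type is a description only.

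Neighbouring tiles were compared after those that were themselves chosen had been left out, a step that depends on the gain. For the embryo-methylated tiles, tiles 1 kb to either side averaged 59.3% and 65.2% in the mutant E14.5 livers and gained 9.24 and 7.83 points, against 26.2% and 20.6 points in the tiles themselves. At 5 kb to either side the mutant gain was 5.31 and 3.88 points, near the 4.94 points of all tiles. Around the tiles that were low in the embryo, the neighbours at 1 kb gained 8.16 and 7.54 points, and at E18.5 the tiles averaged 42.8% and those neighbours 50.2% and 45.4%, so that the tiles were still the lower, by less than at E14.5 (18.3% against 42.0% and 37.8%). Only 13 and 15 neighbours were measured there at 1 kb, with chosen neighbours left out, and 47 and 50 around the embryo-methylated tiles. Around the tiles low in the embryo, the neighbours at 2 kb were at 36.8% and 40.3% in the E18.5 mutants, below the tiles.

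**Figure D4:**
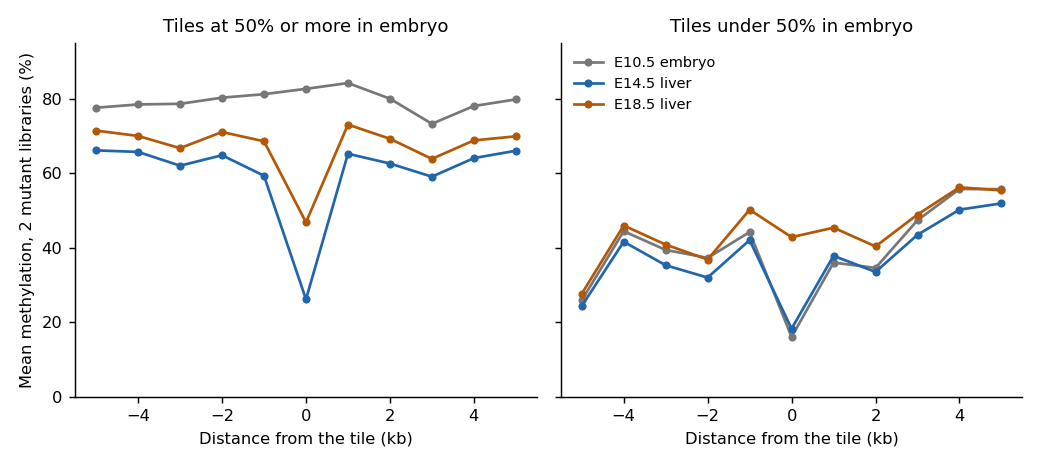
Mean methylation (percent) in the mutants at E10.5, E14.5 and E18.5 (2 libraries each) by distance in kb from the chosen tiles, leaving out neighbours that were chosen too, for the 100 tiles methylated in the embryo (left) and the 35 others (right). On the left the tiles lie at 26.2% in E14.5 liver against 59.3% and 65.2% at 1 kb. On the right the tiles lie below all plotted neighbours at E10.5 and E14.5. At E18.5 they lie at 42.8%, below the neighbours at 1 kb (50.2% and 45.4%) and above those at 2 kb (36.8% and 40.3%).

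In position, 22 of the 135 tiles (16.3%) had their centre within 2.5 kb of a start site, 22 others (16.3%) overlapped an exon, 44 (32.6%) were intronic and 47 (34.8%) intergenic. Over all tiles the shares were 11.6%, 15.8%, 31.1% and 41.5%. The other low tiles differed from both, with 60.8% near a start site, but most of them were also low in the embryo. The share was 16.1% in the 5108 other low tiles methylated in the embryo and 66.3% in the 41555 other low tiles that were low there. Among the embryo-methylated chosen tiles 9.0% were near a start site, and among the 35 other chosen tiles 37.1%. Of these 35 tiles, 16 lay in the Hoxa interval, most of them near a start site, so they are not independent regions. The median ratio of observed to expected CpG was 0.242 in the former, 0.409 in the latter and 0.264 over all tiles.

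The motif AGATAA, read on both strands, was in 97 of the 135 tiles (71.9%), against 40.1% of all 1 kb tiles and 34.2% of the other low tiles. It was in 79.0% of the embryo-methylated tiles and 51.4% of the 35 others, of which 16 lay in the Hoxa interval. The closest comparison, the 5108 other tiles that were under 30% in wild-type E14.5 liver and at 50% or more in the wild-type embryo, held it in 59.6%. At least 2 matches were present in 45% of the embryo-methylated tiles, 23.9% of those 5108 tiles and 10.7% of all tiles. Those 5108 tiles gained 8.36 points on average in the mutant livers. The shares were counted without a test.

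Over the 135 tiles, the other motifs were closer in percentage points to their shares in all tiles. TGAGTCA, bound by NFE2 and AP-1, was in 22.2% of the chosen tiles and 16.5% of all tiles. CAGATG, an E-box of TAL1, was in 50.4% and 58.3%, and CCACACCC, bound by KLF1, in 8.89% and 8.74%. The PU.1 motif GAGGAAGT was in 5.19% of the chosen tiles, 6.67% of all tiles and 15.2% of the 5108 comparison tiles. The ETS motif CCGGAAGT was in 2.96% of chosen tiles and 1.48% of all tiles, and among motifs of liver factors, HNF4A (CAAAGTCCA) was in 2.22% and 1.38%, FOXA (TGTTTAC) in 10.4% and 13.3%, and C/EBP (TTGCNNAA) in 28.9% and 33.5%. Among the embryo-methylated tiles the median mutant gain was 20.4 points in the 79 with AGATAA and 18.49 points in the 21 without it. Among the others it was 24.7 points in 18 tiles and 25.1 points in 17, and neither difference was tested.

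**Figure D5:**
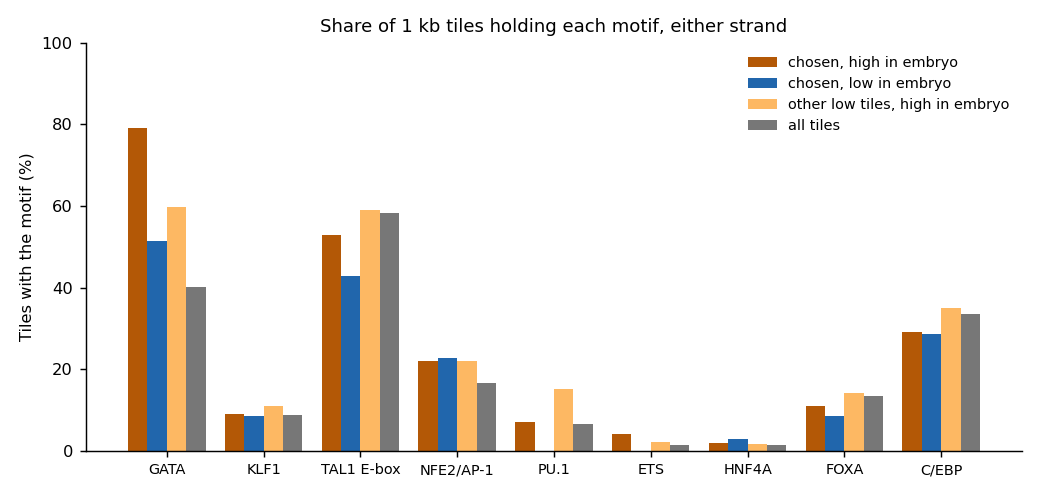
Share of 1 kb tiles (percent) that hold each motif on either strand, for the 100 chosen tiles methylated in the embryo, the 35 other chosen tiles, 5108 other low tiles methylated in the embryo, and all tiles. The GATA motif stands at 79.0%, 51.4%, 59.6% and 40.1%, and the PU.1 motif is at 15.2% in the 5108 tiles.

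RNA was measured in E14.5 liver only, so the genes at the tiles could be compared between genotypes but not between stages. Markers of red cells and of hepatocytes were both abundant, with 8984 to 16249 RPKM (reads per kilobase of exon, scaled to library size) of the alpha-globin gene Hba-a1 and 11381 to 17131 RPKM of albumin. Of the 93 annotated protein-coding genes at the tiles (Hoxa3 and Med20 are each entered under 2 identifiers), 70 (75.3%) were above 1 RPKM on average, against 50.5% of autosomal protein-coding genes, with medians of 4.77 and 1.08 RPKM. That background of 21377 genes was not limited to the 19544 protein-coding genes with any tile, so the sets are unlike. Spnb1 was at 129, 97.4 and 111.7 RPKM in the wild-type livers, Uros at 63.7, 47.5 and 49.7, Vangl1 at 26.6, 19.4 and 23.3 and Nprl3 at 4.198, 3.836 and 3.713.

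The Hoxa genes were near silent in E14.5 liver. Hoxa5 had the highest level, at 1.466, 1.018 and 1.450 RPKM in wild-type and 1.20, 0.962 and 1.49 in mutant livers, from 25 to 40 reads per library. Hoxa2, Hoxa3 (as the larger gene model), Hoxa4 and Hoxa6 were below 1 RPKM in every library, and so were Hoxa7, Hoxa9 and Hoxa10, which held no chosen tile.

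Between genotypes 79 of the 93 genes could be tested, and none was called by edgeR at an adjusted p under 0.05, where 197 of 14183 genes (1.39%) were called in either direction. An unadjusted p under 0.05 was reached by 17 of the 79, against 14.6% of all tested genes. DESeq2 called none of them either, with 15 of the 93 at an unadjusted p under 0.05, against 6.58% of the 21940 genes given a p. Some of the 93, such as Gm20479, had no reads, and the 21940 included genes with few reads that edgeR had filtered out. These DESeq2 shares are therefore not like for like. Calls did arise with a replicate block (St3gal1, Vangl1 and Sphk1) and without a filter on low counts (St3gal1, Zdhhc20, Sphk1 and Ank3), all named after their values were seen. The lowest adjusted p was 0.092 for Ank3, which encodes an ankyrin of the membrane skeleton and held 2 tiles, at 2.94 ± 0.203 RPKM (SD, n = 3) in wild-type and 3.72 ± 0.360 RPKM (SD, n = 3) in mutant livers (edgeR log2 fold change 0.33 ± 0.087 SE). The log2 fold changes of the 79 genes ran from -0.44 to 0.46, with a median of 0.03. Leaving out wild-type replicate 2 gave 1 call, Vangl1, which was named after its values were seen and was lower in the mutants, at 23.1 ± 3.62 RPKM (SD, n = 3) in wild-type and 19.1 ± 1.17 RPKM (SD, n = 3) in mutant livers with all livers included. Among the genes of DNA methylation enzymes 8 of 9 could be tested, and 1, the de novo methyltransferase Dnmt3a, was higher in the mutants, with 6.09, 6.50 and 6.89 RPKM in wild-type and 8.195, 8.380 and 7.839 RPKM in mutant livers (edgeR, adjusted p = 0.0319).

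In the E10.5 embryos the mutants were above the wild type by 2.20 points on average over the 135 tiles (exact two-sided permutation test, p = 0.33, the smallest 2 against 2 can give), and over all tiles by 1.58 points. At 51 of the 135 tiles (37.8%) both mutant embryos were above both wild-type embryos, against 31.5% of all tiles, and at 22 (16.3%) both were below, against 9.28%. By edgeR 1 of the 135 was called higher and none lower, where 0.384% of all tiles were called higher and 0.00278% lower. That tile (chr7:28139001-28140000, near a start site of Shkbp1, named because it was the only call) was at 23.2% and 30.3% in the wild-type and 55.9% and 39.4% in the mutant embryos, a difference of 20.9 points (edgeR, adjusted p = 0.0144). An unadjusted p under 0.05 was reached by 29 of the 135, against 11% of all tiles. The call was lost without wild-type replicate 1, where no chosen tile was called, or without mutant replicate 1, and 2 tiles were called without mutant replicate 2. With at least 10 reads per CpG the 1 call was not the Shkbp1 tile but a tile on chromosome 15 that is not among the 135. With a replicate block 3 of the 135 were called, and with limma on log ratios none was.

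The genotypes cannot be compared without bias in the livers, because the wild-type livers had to be low at E14.5 and high at E18.5 for a tile to be chosen. The mutants exceeded the wild type at E14.5 by 4.55 points on average, with both mutants above both wild types at 89 tiles (65.9%, against 34.2% of all tiles), while the mean difference at E18.5 was -0.84 points. A choice on wild-type replicate 2 alone gave 431 tiles, where the genotypes were not compared. When tiles were instead chosen on wild-type replicate 1 alone, 740 tiles resulted. At E14.5 this replicate lay below wild-type replicate 2, by -4.86 points in the 740 tiles and -2.45 points over all tiles. In the 740 tiles, wild-type replicate 2, which the choice did not use, gained 14.8 points. The mutants gained 17.3 (replicate 1) and 14.4 points (replicate 2). Against wild-type replicate 2 the mutants were then 2.63 and 1.81 points higher at E14.5 and 5.12 and 1.36 points higher at E18.5, and over all tiles these differences were 1.12, 0.346, 3.83 and 0.33 points. Some cell type markers also differed between genotypes in the E14.5 livers. Of 15 neutrophil genes 7 were called lower in the mutants (edgeR) and none higher. The summed level of the list was 1133 to 1694 RPKM in wild-type and 839 to 975 RPKM in mutant livers. Of 33 tested hepatocyte genes 1 was called higher and 1 lower. The summed levels of the list, 33013 to 38824 RPKM in wild-type and 39907 to 46766 RPKM in mutant livers, did not overlap. Afp and albumin weighed heavily in this sum, at 14255 and 13017 RPKM in the wild type. Neither was called (edgeR, adjusted p = 0.354 and 0.151). The megakaryocyte list had 2 of 13 called higher and none lower (606 to 626 and 732 to 813 RPKM). The macrophage list had 1 of 13 called lower and none higher (443 to 468 and 363 to 391 RPKM). The median log2 fold changes were -0.544 for the neutrophil, 0.11 for the hepatocyte, 0.295 for the megakaryocyte and -0.016 for the macrophage list. No gene of the stem and progenitor, lymphoid, endothelial or mesenchymal lists was called. Of 64 tested erythroid genes 1 was called higher and none lower, with summed levels of 42093 to 74652 and 51351 to 55148 RPKM. Their part in the methylation difference was not tested. In the 135 chosen tiles the mutants differed from wild-type replicate 2 at E18.5 by 1.11 and -3.25 points.

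The threshold cut through a continuous range. The tile just inside the required gain, chr17:87870001-87871000, had a least wild-type gain of 20.02 points, and the tile just outside, chr17:47840001-47841000, had 19.98 points. There were 31 tiles within 1 point above the limit and 30 low tiles within 1 point below it. A further 112 tiles had the same wild-type gain but were not under 30% at E14.5.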

How the data were processed

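CpG methylation was measured by whole-genome bisulphite sequencing in 12 libraries and RNA by sequencing in 6. The authors aligned bisulphite reads to mm9 with Bismark and Bowtie2 and deposited counts of unconverted and converted cytosines per CpG. Per the submitters' processing notes, RNA reads were aligned with TopHat and counted with HTSeq, and the deposited values are read counts per gene (12928313 to 14621004 per library). H3K4me1 ChIP-seq samples were not analysed here. Here a CpG was kept if every one of the 12 libraries covered it with 6 or more reads, and reads were summed over 1 kb tiles with at least 8 such CpGs. The percent methylation per CpG that the authors deposited beside the counts was not used. Wild-type liver values chose the tiles and are described without a test.

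All tiles were tested with edgeR 4.0.16 (glmQLFit, 1 intercept per library, common dispersion, difference above 15 points, Benjamini-Hochberg adjusted p under 0.05), and RNA with edgeR after filterByExpr and TMM, on R 4.3.3; limma 3.58.1 and DESeq2 1.42.0 were alternatives. RPKM were computed from the counts and the union of exons. Genes come from GENCODE vM1. Deviations of same-numbered bisulphite libraries correlated at -0.02 to 0.05 over the tested comparisons and at 0.007 (E14.5) and -0.013 (E18.5) between the genotypes of the livers, so the numbers were not treated as pairs, although they share a sex at E14.5. Per the study, the E14.5 bisulphite livers came from littermates. For the other samples litters are not given in the sources used here, so p-values measure the spread between these samples. The number of reads per tile limits the precision of each value. The tiles, lists and tests were chosen with earlier results of these data known. Tiles named in the text are the 10 with the largest wild-type gain (given in part), the 5 with the smallest mutant gain, the most CpG-rich tile at each erythroid or hepatocyte list gene, and the longest run. The Runx1, Runx3, Rps6ka4 and Shkbp1 tiles, the second Rnf220 tile and the tiles at the threshold were named after their values were seen. Motifs AGATAA and others were searched on both strands of the 1000 bases. The alternatives and leaving out each library are reported below. Some sequences and 1 gene are not reported here.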

Additional observations from a re-analysis of the deposited data

Results flagged for a closer look

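At 29 of the 135 tiles, 8 of them among the 21 named by rule, both mutants lay above both wild types at one stage and below them at another. That is 21.5% of the chosen tiles, against 8.9% of all 574594 tiles. The difference between stages was not tested at any of them, and for the livers the wild-type values had chosen the tiles. At chr4:13214001-13215000 the mutant minus wild type difference was 8.6 points at E14.5 and -14.9 at E18.5. At the Hydin tile (chr8:112837001-112838000) it was 8.1 and -10.1 points, at the Sphk1 tile (chr11:116398001-116399000) 5.4 and -14.1, at the Elf1 tile 5.7 and -16.0 and at the Scube3 tile (chr17:28298001-28299000) 4.9 and -11.1. These 5 were named for a small mutant gain, which favours this pattern. At the Rnf220 tile the differences were 1.0 and -4.7 points. At chr6:52130001-52131000, near Hoxa3, they were -1.0 at E10.5, 3.9 at E14.5 and -5.5 at E18.5. At chr6:52156001-52157000 they were 0.7 at E10.5 and -9.9 at E18.5. The Rnf220 tile and these Hoxa tiles were named for a large wild-type gain. That choice favours mutants above the wild type at E14.5 and below it at E18.5.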

How the results depend on the processing

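With 2 libraries per bisulphite group, single tiles are known only roughly. The number of chosen tiles was 97 with at least 10 reads per CpG, 125 with E14.5 livers thinned to E18.5 depth, 120 with an unweighted mean over CpGs, 37 with a required gain of 25 points and 60 with at least 12 CpGs. The number called higher at E18.5 in the mutants was 79 with a difference above 20 points, 8 with limma on log ratios, and between 22 and 118 when 1 library was left out, the lowest 2 values being those without an E14.5 mutant. Calls between embryos, 1 in the test as reported, were 0 with limma on log ratios and 0 to 2 when 1 library was left out. Tiles called lower in mutant E14.5 livers than embryos stayed at 104 to 105 and tiles called different at E18.5 at 124 to 127 when 1 library was left out. The mean mutant gain was 19.5 to 23.8 points and the mean embryo genotype difference 1.78 to 2.62 points when 1 library was left out. With tiles chosen on wild-type replicate 1 alone these means were 15.84 and 3.03 points.

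With a replicate block 115 tiles were called for the liver stages. For lower methylation in E14.5 livers than embryos the count was 105, and for E18.5 livers against embryos it was 128. For the embryo genotypes 3 were called: the Shkbp1 tile, the first tile of the run at Hoxa3 and a tile near a start site of Ank3. The Shkbp1 and Ank3 tiles were named after their values were seen. Choosing tiles on wild-type replicate 1 and comparing with wild-type replicate 2 gave a mean genotype difference of 2.22 points at E14.5 and 3.24 at E18.5, where the sign turned. Both the tiles and the wild-type comparator changed in this alternative. Genes at the tiles called between genotypes were 4 without a filter on low counts (St3gal1, Zdhhc20, Sphk1 and Ank3), 3 with a replicate block (St3gal1, Vangl1 and Sphk1) and 0 to 1 when 1 liver was left out. The cause of the other changes was not tested.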
